A study of Arabidopsis thaliana with 3 samples.

Results

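ONSEN, also called COPIA78, is a family of long terminal repeat retrotransposons of Arabidopsis thaliana, and the 8 copies described here are AT1G11265, AT1G21945, AT1G48710, AT1G58140, AT3G32415, AT3G59720, AT3G61330 and AT5G13205. They were chosen as a fixed list of locus tags of full-length copies, and 8 of 8 were found among the 37899 nuclear genes with coordinates in a RefSeq gene table. Chromatin came from leaves aged 2 to 3 weeks, was cut with micrococcal nuclease for 15 min, which digests the DNA between nucleosomes, and was immunoprecipitated for H2A.W.6 or for H2A.W.7. Each immunoprecipitation was 1 library from 4 g of leaf, and 1 control library stood beside both. The labels used here state neither genotype nor growth temperature. What was deposited is lists of enriched regions, which give positions alone. Depth is therefore unknown, and with 1 library per variant nothing was tested and the values are descriptions.

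A retrotransposon of this kind is copied through RNA. Its coding part, with the domains for capsid, protease, integrase and reverse transcriptase, lies between a pair of long terminal repeats that hold the promoter. ONSEN is known for its activation by heat, when heat-shock factors bind elements in those repeats, and small RNAs and DNA methylation limit its transcription and its new insertions. H2A.W histones are H2A variants known to sit on transposons and other plant heterochromatin.

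The gene table listed all 8 copies as pseudogenes, with annotated bodies of 3880 to 4295 bp. Known ONSEN elements are longer than that, and the table gives no repeats, exons, strand or transposon class, so the terminal repeats are likely to lie partly or wholly in what is called the flank here. Whether each locus is an intact ONSEN copy was not checked, since no sequence was analysed. Copies of ONSEN are known to be close to identical, so reads of 50 bp may match several of them. The sources do not state how such reads were placed, and cover of 1 copy cannot be told apart from reads of another. Left and right below mean the lower-numbered and higher-numbered edge on the chromosome, not the direction of transcription.

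All 8 copies had regions of both variants in the body. With regions shorter than the median of their list left out, all 8 kept H2A.W.6 cover, but 3 had 0% H2A.W.7 (AT3G32415, AT3G61330 and AT5G13205). The cut differed between lists. In the arms an H2A.W.7 region had to reach 395 bp, where 360 bp was enough under H2A.W.6. The longest H2A.W.7 region of AT3G61330, 380 bp, lay between these limits, so the 0% of that copy depended on the cut. The centromeric cut was 575 bp under H2A.W.6, against 430 bp. H2A.W.7 regions of AT3G32415 reached 405 bp and those of AT5G13205 350 bp, below both cuts of their part of the genome. H2A.W.6 covered between 41.0% and 93.6% of a body, with a median of 75.9%, and H2A.W.7 covered between 16.0% and 82.1%, with a median of 60.4%. Over the 32284 bp of the 8 bodies, 23416 bp or 72.5% lay in H2A.W.6 regions and 18268 bp or 56.6% in H2A.W.7 regions. The H2A.W.6 cover came from 43 regions with a median length of 425 bp, and the H2A.W.7 cover from 42 regions with a median of 375 bp. A typical region of the arm list was 360 bp long under H2A.W.6 and 395 bp under H2A.W.7 (medians).

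**Figure D1:**
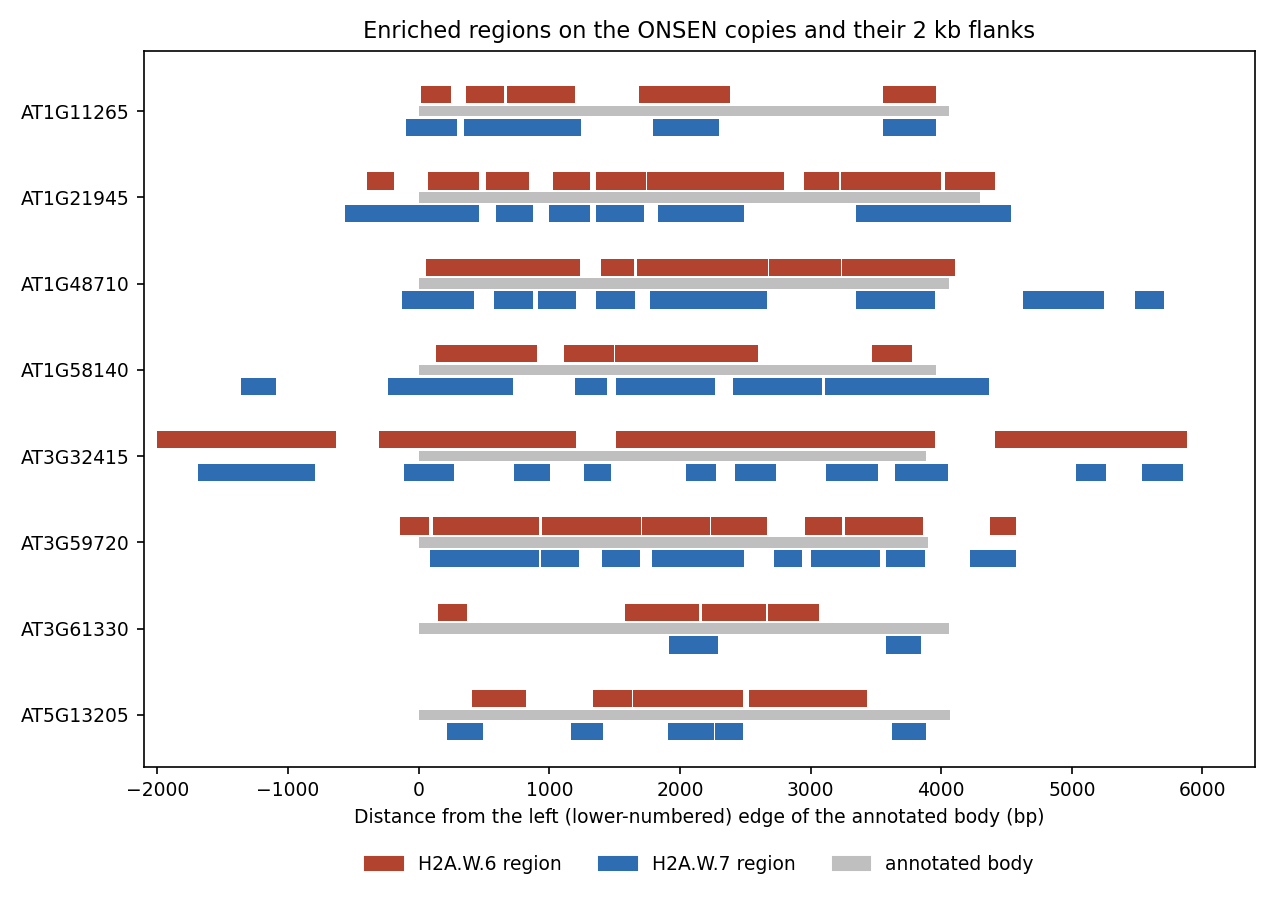
Regions on each of the 8 ONSEN copies and on 2 kb at either side. The horizontal axis is the distance in bp from the left edge of the annotated body (grey bar); boxes above the bar are H2A.W.6 regions and boxes below it are H2A.W.7 regions, cut at the outer limits of the flanks. Both variants break into several boxes along each copy, AT3G61330 has 2 H2A.W.7 regions on its body, and the flanks of AT3G32415 hold long H2A.W.6 regions.

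The most covered copy by H2A.W.6 was AT1G48710, on the right arm of chromosome 1 and 0.514 Mb from the border of the centromeric part. H2A.W.6 covered 93.6% of its body and H2A.W.7 covered 69.0%, with 2695 bp in regions of both variants. Its longest H2A.W.6 region lay at chromosome 1, 18015301 to 18016305 (TAIR10, the build of all positions given here). AT3G32415, on chromosome 3, was the only copy of the 8 in the centromeric part. H2A.W.6 covered 91.9% of it and H2A.W.7 covered 49.5%, a difference of 42.4 percentage points and the largest among the copies. A single H2A.W.6 region of 1915 bp, chromosome 3, 13371831 to 13373745, took much of its right side, whereas 7 separate H2A.W.7 regions met the same body.

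AT3G59720, on the right arm of chromosome 3, had 89.2% of its body in H2A.W.6 regions and 81.1% in H2A.W.7 regions. AT1G21945, on the left arm of chromosome 1, had 87.2% and 70.8% in the same order. Its H2A.W.7 cover ended in a region of 1190 bp at chromosome 1, 7721171 to 7722360, that crossed the right edge. Both variants shared most of their bases in this pair, as 76.0% of the bases covered by either variant were covered by both in AT3G59720 and 73.5% in AT1G21945.

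AT1G58140, on the right arm of chromosome 1, was the only copy of the 8 with more H2A.W.7 than H2A.W.6. H2A.W.6 covered 64.6% and H2A.W.7 covered 82.1%, a difference of -17.5 percentage points (H2A.W.6 minus H2A.W.7). H2A.W.6 was present without H2A.W.7 over 475 bp of this body, and H2A.W.7 without H2A.W.6 over 1168 bp. The longest H2A.W.7 region on any copy, 1260 bp at chromosome 1, 21528531 to 21529790, crossed its right edge.

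The other 3 copies had less of the body under H2A.W.6 than the 5 above. AT5G13205, on the left arm of chromosome 5, had 60.3% of its body under H2A.W.6 and 33.0% under H2A.W.7. In AT1G11265, on the left arm of chromosome 1, the values were 53.0% and 51.8%. AT3G61330, on the right arm of chromosome 3, was lowest for both variants, at 41.0% and 16.0%, and its H2A.W.7 cover came from regions at chromosome 3, 22697906 to 22698285 and 22699571 to 22699840. AT1G11265, AT1G48710 and AT3G61330 all had an annotated length of 4059 bp, and their H2A.W.6 shares still ran from 41.0% to 93.6%.

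Counting a body as covered at 50% or more, H2A.W.6 covered 7 of the 8 copies and H2A.W.7 covered 5. The copy just outside the limit for H2A.W.7 was AT3G32415, at 49.5%, and the one just inside was AT1G11265, at 51.8%. Among all nuclear genes 12.9% passed this limit under H2A.W.6 and 11.3% under H2A.W.7. Among the 755 other pseudogenes of the arms the shares were 56.7% and 58.3%. Pseudogenes of like length are the closer comparison, and of the 165 other arm pseudogenes of 4 to 6 kb, 78.8% passed under H2A.W.6 and 64.2% under H2A.W.7. The 7 arm copies of ONSEN had 6 past the limit under H2A.W.6 and 5 under H2A.W.7, so their counts lay near the shares of these 165. The bodies of the 8 copies, 3880 to 4295 bp, lie near or under the lower limit of that length window. In the centromeric part, 95.0% of 503 pseudogenes of that length passed under H2A.W.6 and 62.4% under H2A.W.7. AT3G32415 passed for H2A.W.6 and missed for H2A.W.7, and 184 of the 503 had a lower H2A.W.6 share and 185 a lower H2A.W.7 share.

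Median body shares of the arm copies were 64.6% under H2A.W.6 and 69.0% under H2A.W.7, against 80.4% and 65.2% in the 165 other arm pseudogenes. Quartiles of those other pseudogenes ran from 58.8% to 93.0% under H2A.W.6 and from 30.9% to 89.5% under H2A.W.7. The arm copies thus lay within the range of the others. For H2A.W.6, AT1G48710 stood above 128 of the 165, AT3G59720 above 108 and AT1G21945 above 99. AT1G58140, AT5G13205, AT1G11265 and AT3G61330 stood above 48, 44, 37 and 33. For H2A.W.7 the highest arm copy, AT1G58140, stood above 108 of the 165, under the upper quartile, and the lowest, AT3G61330, above 30.

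Copy by copy, H2A.W.6 covered more of the body than H2A.W.7 in 7 of the 8, but by 1.21 percentage points in AT1G11265, where the difference was -17.4 points once regions shorter than the median of their list were left out. The median difference was 20.5 points over the 8 copies and 16.4 points over the 7 arm copies, of which 6 had more H2A.W.6. H2A.W.6 also covered the larger share in 60.0% of the 165 other arm pseudogenes, where the median difference was 3.07 points. In the 503 centromeric ones it was 27.1 points. Both sets include loci with 0% of both variants or 100% of both, where neither variant covers more and the difference is 0. These loci lower the 60.0% and draw the medians toward no difference. The arm medians by variant have the opposite order to the median of the differences, since AT1G58140 is the middle copy by H2A.W.6 and AT1G48710 by H2A.W.7. The order also depended on how gaps were treated: with regions joined across 1000 bp, H2A.W.6 covered more in 4 copies and the median difference was 0.973 points.

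**Figure D2:**
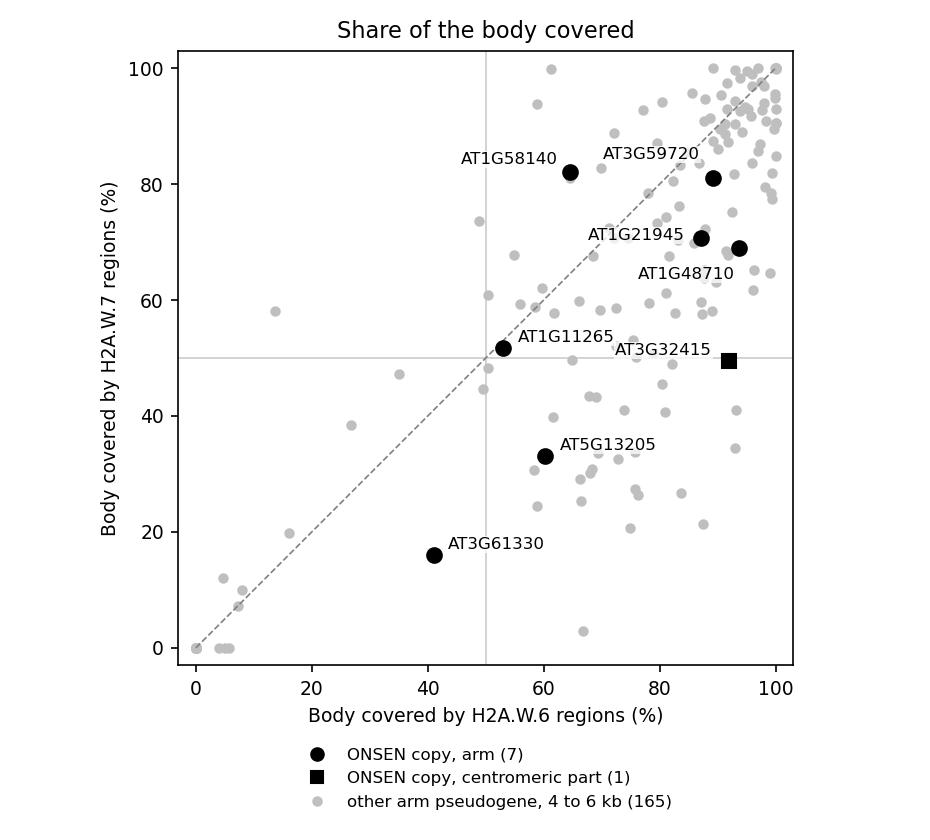
Share of the body in H2A.W.6 regions (horizontal, %) and in H2A.W.7 regions (vertical, %) for the 7 arm copies of ONSEN (black circles), the centromeric copy (black square) and 165 other arm pseudogenes of 4 to 6 kb (grey). Grey lines mark 50% and the dashed line marks equal shares; AT1G58140 lies above the dashed line, and the other 7 copies lie on its H2A.W.6 side.

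The variants shared many of their bases. Of the bases in H2A.W.6 regions, 65.2% also lay in H2A.W.7 regions, and of those in H2A.W.7 regions 83.6% also lay in H2A.W.6 regions. Bases with H2A.W.6 alone came to 8151 bp, with H2A.W.7 alone to 3003 bp and with neither to 5865 bp. Bases covered by both made up 57.8% of those covered by either over the 8 copies and 59.8% over the 7 arm copies, against 71.4% in the other arm pseudogenes of like length. With the shorter regions left out the share over the 8 copies was 37.3%. Copy by copy, with every region used, it was above that 71.4% in AT1G11265 (84.7%), AT3G59720 (76.0%) and AT1G21945 (73.5%). It was lower in AT1G48710 (69.0%), AT1G58140 (55.9%), AT3G32415 (45.5%), AT5G13205 (23.6%) and AT3G61330 (18.1%). Such a share rises with the cover itself, which was not matched between the sets. In AT3G61330 every base with both lay in the left of its 2 H2A.W.7 regions, at the middle of the body. Both lists were made beside 1 control library, and its part in the overlap was not tested.

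H2A.W.6 lay at the middle of the body in all 8 copies, and so did H2A.W.7 when every region was used. Without the shorter regions, under cuts that differed between lists, 3 copies had no H2A.W.7 left. With each body cut into 5 equal parts, H2A.W.6 covered 85.7% of the middle part in AT1G11265, the lowest value, and 96.9% or more in the other 7 copies. AT3G61330, with 96.9% in the middle, had 27.1%, 5.67%, 75.5% and 0% in its other parts from left to right. The mean over the 7 arm copies was 96.6% for the middle part, and the other 4 parts had means of 73.5%, 59.4%, 62.7% and 57.0% from left to right. The 165 other arm pseudogenes had means of 72.0%, 69.5%, 66.2%, 64.3% and 64.5%. A middle part as covered by H2A.W.6 as that of AT1G11265 or more was found in 82 of the 165, and 30 of the 165 had no H2A.W.6 base there. The cut into 5 parts, like the values for arm copies alone, the shared positions, the likeness of pairs, the bins across the edges and the 100 kb windows, was chosen after the positions had been seen.

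H2A.W.7 had its own pattern along the body. It covered 29.0% (AT3G32415) to 87.8% (AT3G59720) of the middle part, with a mean of 72.9% over the 7 arm copies against 51.2% in the other arm pseudogenes. Of these 165 others, 44 had no H2A.W.7 base in the middle part. At least 50% of it was covered in 88 of the 165 and in 6 of the 7 arm copies. The middle was the most covered part in 3 of the 7 arm copies and in 25 of the 165. Part 4 was the least covered, at a mean of 28.3% over the 7 arm copies against 49.0% in the others. AT1G11265 and AT3G61330 had no H2A.W.7 base in part 4, AT5G13205 had 5.16% and AT1G21945 had 10.6%. In AT3G61330 parts 1 and 2 had none either. Part 4 held more in AT1G48710 (28.2%), AT3G32415 (40.6%), AT3G59720 (61.5%) and AT1G58140 (92.9%). The least covered part was another one in AT1G58140, part 2 at 40.5%, and in AT3G32415, the middle part. With no strand in the table, part 4 of 1 copy may match part 2 of another, while the middle is the same in both directions.

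**Figure D3:**
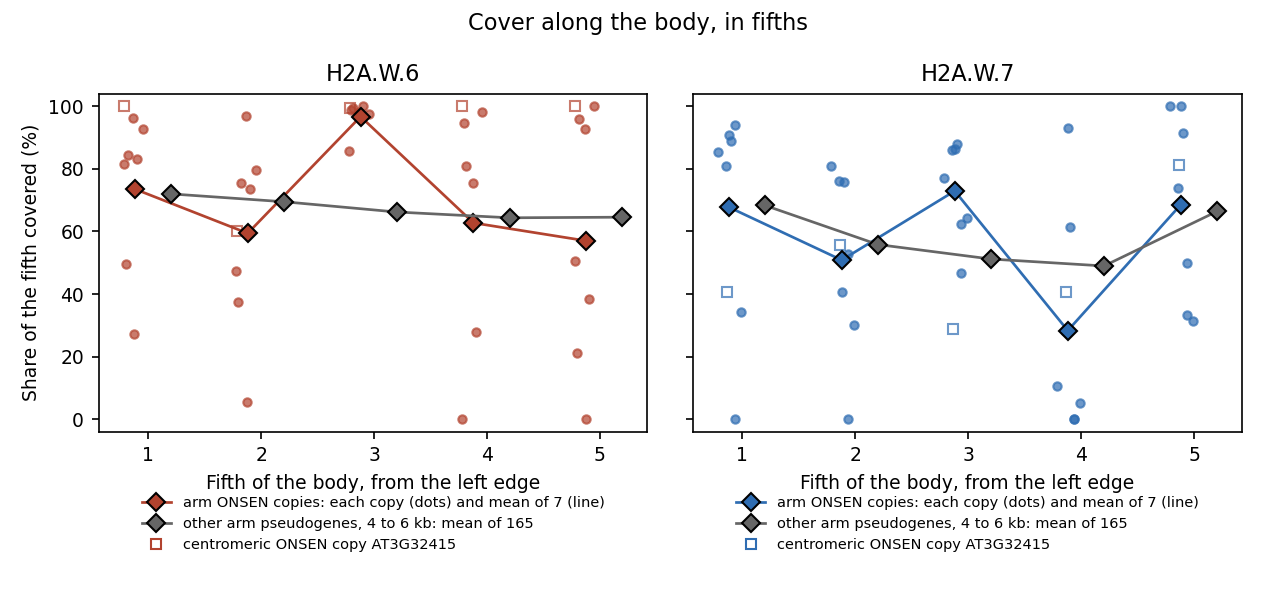
Share of each of 5 equal parts of the body covered (%), from the left edge, by H2A.W.6 regions (left panel) and H2A.W.7 regions (right panel). Dots are the 7 arm copies of ONSEN with their mean as a coloured line, open squares are the centromeric copy AT3G32415, and the grey line is the mean of 165 other arm pseudogenes of 4 to 6 kb; the H2A.W.6 values of the middle part lie at 85.7% or more in all 8 copies.

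Base by base, over the first 3880 bp from the left edge, 650 positions lay in H2A.W.6 regions in all 8 copies, and the 6 runs of them fell between bp 1687 and 2386. For H2A.W.7 there were 410 such positions in 2 runs, bp 2050 to 2260 and bp 3650 to 3848. Both variants were found in all 8 copies at 176 positions between bp 2050 and 2260. H2A.W.7 was rarest between bp 2901 and 3000, where the mean cover was 17.0% and 1 copy had at least 50% of the interval covered. Each position was covered by each variant in at least 1 copy. Such shared positions are a description of 8 copies of like sequence and not of independent loci. With no strand in the table, the same bp number may mark different places of the element in different copies.

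Copies were also compared in pairs by the share of covered positions they had in common, a measure that rises with the cover itself. For H2A.W.7, 78.4% of the positions covered in either AT1G21945 or AT1G48710 were covered in both, and with one of them turned round 51.5% were. The opposite held for AT1G58140 beside AT1G48710, at 55.3% as annotated and 75.8% turned round. Over all 28 pairs the median was 56.9% under H2A.W.6 and 41.0% under H2A.W.7 as annotated, and 57.2% and 36.0% with 1 copy turned round. AT1G48710 and the centromeric AT3G32415 had the highest value for H2A.W.6, at 93.2% as annotated and 85.3% with 1 copy turned round, and these are the copies with over 90% of the body covered.

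The ends of a body, its outer 500 bp at each edge, were more covered than the interior in 5 of 8 copies under H2A.W.6 and in 8 of 8 under H2A.W.7. For H2A.W.6 the mean cover was 68.6% of the ends and 73.9% of the interior. That order rests on AT5G13205, with 9.0% of its ends and 77.0% of its interior under H2A.W.6, and without it the means were 77.1% and 73.4%. AT3G61330 had 22.0% and 47.2%. H2A.W.7 covered a mean of 74.0% of the ends and 51.0% of the interior. AT1G11265 had 85.2% of its ends and 40.8% of its interior under H2A.W.7, and AT1G58140 had 100% and 76.0%.

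The 7 arm copies on their own had means of 64.1% for the ends and 71.7% for the interior under H2A.W.6, and of 75.5% and 51.9% under H2A.W.7. In the other arm pseudogenes of like length the H2A.W.6 means were 65.5% and 67.7%, and 70 of the 165 had more in the interior. Their H2A.W.7 means were 71.1% and 54.5%, and 22 of the 165 had more in the interior. In both sets H2A.W.7 covered a larger share of the ends than of the interior.

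Outside the annotated body, cover was lower from the first bins onward at the arm copies. Over their 14 edges the mean H2A.W.6 cover was 35.8% in the last 100 bp inside the edge, 17.9% in the first 100 bp outside and 5.29% in the next 100 bp. For H2A.W.7 it was 49.6%, 42.8% and 30.4%. H2A.W.6 regions crossed 3 of the 14 edges and H2A.W.7 regions crossed 6. Between 500 and 2000 bp from the body, H2A.W.6 covered a mean of 0.848% and H2A.W.7 6.49%, and 6 and 3 of the 7 arm copies had no base of the variant there. Terminal repeats are likely to lie partly or wholly in what is called the flank, so the edge of a body need not be that of the element.

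Flanks of the other arm pseudogenes held more. Within 500 bp of the body, H2A.W.6 covered a mean of 7.73% at the arm copies of ONSEN, against 35.8% at the others, and H2A.W.7 covered 25.4%, against 53.2%. Between 500 and 2000 bp the others had 16.8% under H2A.W.6 and 25.2% under H2A.W.7. The lower cover began inside the edge: in the last 100 bp of the body H2A.W.6 covered 35.8% at the arm copies, against 54.4% at the others, and H2A.W.7 covered 49.6%, against 72.2%. The others were matched for length and for lying in the arms, not for distance from the centromeric part or for wider surroundings. The arm copies lay 0.514 to 8.62 Mb from its border, and the part of position in these differences was not tested.

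**Figure D4:**
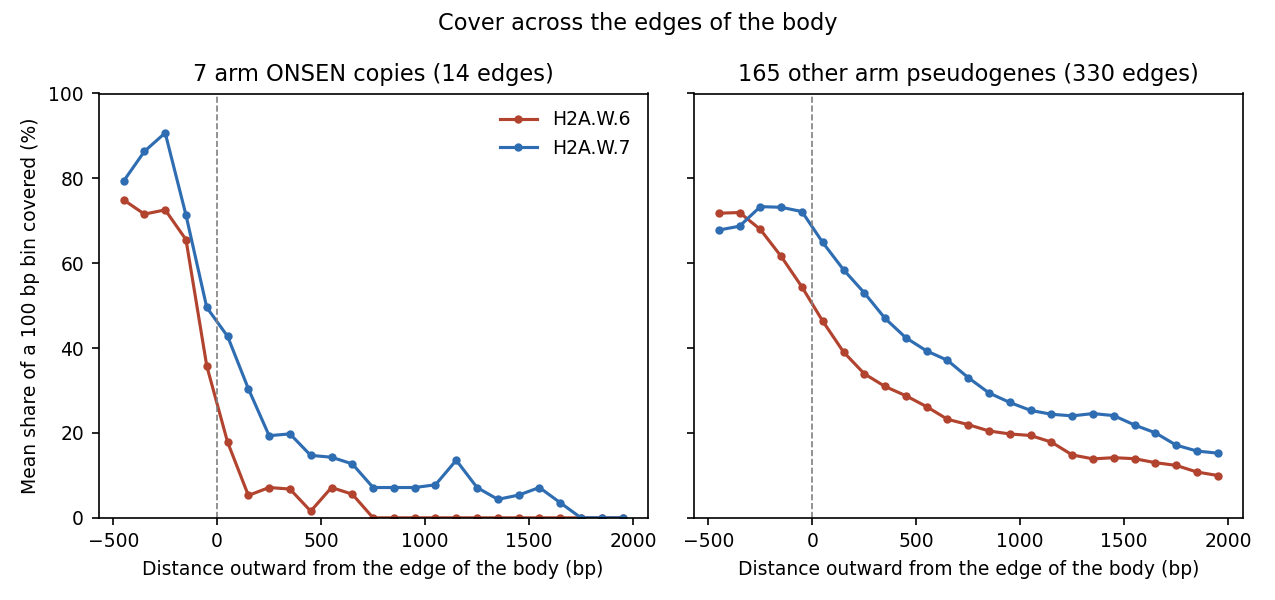
Mean share of 100 bp bins covered (%) by H2A.W.6 and H2A.W.7 regions, from 500 bp inside to 2000 bp outside the edge of the body (dashed line), with both edges of a body pooled. The left panel shows the 7 arm copies of ONSEN and the right panel 165 other arm pseudogenes of 4 to 6 kb; H2A.W.6 at the ONSEN copies is at 0 from 700 bp outward, while the other pseudogenes keep both variants out to 2000 bp.

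Single flanks differed between copies. Within 2 kb, AT1G11265, AT1G58140, AT3G61330 and AT5G13205 had no H2A.W.6 base on either side, and AT3G61330 and AT5G13205 had no H2A.W.7 base either. H2A.W.6 covered 10.3% of the left flank of AT1G21945 and 6.00% of its right flank, and H2A.W.7 covered 28.3% and 12.0%. At AT1G58140 H2A.W.7 covered 25.1% on the left and 20.3% on the right. The right flank of AT1G48710 had 2.50% H2A.W.6 and 42.5% H2A.W.7. At the centromeric AT3G32415 H2A.W.6 covered 83.3% and 77.0% of the left and right flanks and H2A.W.7 50.3% and 36.2%.

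Wider surroundings of the arm copies held little of either variant. In the 100 kb around each arm copy, leaving out the body and 2 kb at each side, H2A.W.6 covered 0% (AT5G13205) to 5.02% (AT1G48710) and H2A.W.7 covered 0.250% (AT3G59720) to 6.28% (AT1G21945). Over whole arms the shares were 2.39% and 4.70%. AT3G59720 thus had 89.2% of its body under H2A.W.6 with 0.261% around it. Around AT3G32415 the shares were 81.3% under H2A.W.6 and 53.4% under H2A.W.7, so its body had more H2A.W.6 and less H2A.W.7 than its surroundings.

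Some genes next to the copies had cover in the body. Nearest genes lay 39 to 2024 bp away, and 14 of the 16 were protein-coding. Of the 16, 12 had no H2A.W.6 base and 11 had no H2A.W.7 base, and the rest had one. Among all protein-coding nuclear genes 5.10% had an H2A.W.6 base and 7.66% an H2A.W.7 base in the body, smaller shares than among the 16. The sets are unlike, as the 16 include a non-coding RNA gene, a transcribed pseudogene and both neighbours of the centromeric copy. STP1, which encodes a hexose transporter and lies 411 bp to the left of AT1G11265, had 0% for both. AT1G11265 itself lies inside the span of the protein-coding gene AT1G11270, whose remaining sequence had 0% H2A.W.6 and 3.73% H2A.W.7; the table does not show whether the copy is in an intron.

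Among neighbours of arm copies with any cover, AT1G48720, 39 bp to the right of AT1G48710, had 1.51% H2A.W.6 and 27.8% H2A.W.7. AT3G59730, to the right of AT3G59720, had 11.3% and 20.1%, and the transcribed pseudogene AT1G58130, to the left of AT1G58140, had 0% and 12.1%. Both protein-coding neighbours of the centromeric AT3G32415 were wholly under H2A.W.6, with 81.0% (AT3G32410) and 34.4% (AT3G32420) under H2A.W.7.

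The 24 listed genes, of the heat response, RNA-directed DNA methylation and heterochromatin maintenance, had no H2A.W base in the body. Few protein-coding genes have one there (5.10% under H2A.W.6 and 7.66% under H2A.W.7). None of the 10 heat-shock factor and heat-shock protein genes, which include HSFA2, an amplifier of the heat response, had a base of either variant. The same held for the 7 genes of RNA-directed DNA methylation, the pathway of small RNAs that methylates transposons, and for the 7 genes that maintain heterochromatin. In their 2 kb flanks, 1 of these 24 genes had H2A.W.6 bases and 7 had H2A.W.7 bases, and among all protein-coding nuclear genes the shares were 13.1% and 29.0%. RDR2, the polymerase that makes the double strand for small RNAs, had 10.9% H2A.W.6 and 23.1% H2A.W.7 in its right flank. HSFA1D, a master regulator of the heat response, had 58.3% H2A.W.7 in its right flank, and MET1, the methyltransferase that maintains CG methylation, had 40.8% in its left flank. The other 4 were NRPD2 with 26.8%, DCL3 with 22.3%, NRPE1 with 14.3% and NRPD1 with 13.8% H2A.W.7 in 1 flank.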

How the data were processed

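The authors deposited 4 lists of enriched regions as chromosome, start and end: each immunoprecipitation has an arm list and a centromeric list. These positions carry no score, and the depth per library is unknown. The genome build is TAIR10 and bedtools is a tool used, per the submitters' processing notes; the aligner, caller, threshold and scaling were not given in the sources used here. No file of the control library was analysed here. Region positions are printed as counted from 1.

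Gene bodies are those of RefSeq's TAIR10.1 gene table. Because the names of the builds differ, no gene coordinate is printed. Moved by up to 5000 bp either way in steps of 500 bp, the table gave the highest H2A.W.6 cover of arm pseudogenes at no shift on 5 of 5 chromosomes. Each border of the centromeric part is the single multiple of 100 kb that separates arm regions from centromeric ones.

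Cover is the share of bases of a body, end, flank or bin that lie in regions, computed with Python 3.11.15 and NumPy 2.4.6. No test was run, as there is 1 library per variant. Differences are H2A.W.6 minus H2A.W.7. Ends are the outer 500 bp of a body and flanks are 2 kb. Pseudogenes of 4 to 6 kb in the same compartment, without the ONSEN copies, served as the comparison. The copies, the list of 24 genes and the limit of 50% were chosen with earlier results of these data known. Named are the 8 copies, their nearest genes, and list genes with a base in a body or flank; flank cover of list genes was added after the positions had been seen. Of 200 simulated loci, the 100 set above the limit were the 100 found. Each held a single unbroken stretch of known length, so this checks the arithmetic of the share alone. Alternatives were a stricter list (no region shorter than its list's median length), joining regions across 100 or 1000 bp, bodies widened by 500 bp, other limits, ends, flanks and lengths, and each copy left out. A planned search for heat-shock elements needs sequence and was not run, so no sequence is shown.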

Additional observations from a re-analysis of the deposited data

How the results depend on the processing

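No paired analysis was possible because each variant has 1 library and no result comes from a test. The alternatives gave 198 values for 41 results: 60 lay inside the 95% Wilson interval of a share (over bases or loci) or within 1.5 times of a count or difference, 135 moved further and 3 turned in sign. Alternatives for the count of copies with more H2A.W.6, for the differences of single copies and for the median difference, ends and interior with a copy left out were chosen after seeing the data. Neighbouring bases are not independent, so this interval is narrow and most shares move out of it. Of 64 shares of single copies, 56 stayed on the same side of the 50% limit. Copies past the limit under H2A.W.6, 7 as reported, numbered 2 at 90%, and those under H2A.W.7, 5 as reported, numbered 3 with the stricter list, 8 with any base and 0 at 90%. Median shares of H2A.W.6 and H2A.W.7 were 61.7% and 47.7% with the stricter list, 95.2% and 98.9% when joined across 1000 bp, and 63.0% and 51.5% with widened bodies, and 77.7% for H2A.W.6 when joined across 100 bp. With each copy left out they ran from 64.6% to 87.2% and from 51.8% to 69.0%. The median difference ran from 16.4 to 24.7 points with each copy left out, and was 31.3 points with the stricter list, 0.973 when joined across 1000 bp, where 4 copies had more H2A.W.6, and 12.3 with widened bodies. The difference of AT1G11265 turned to -17.4 points with the stricter list and -0.988 with a widened body, and that of AT1G48710 to -1.45 when joined across 1000 bp. Ends of 250 and 1000 bp gave 61.7% and 67.4% under H2A.W.6, where 500 bp gave 68.6%, and 70.0% and 61.8% under H2A.W.7, where 500 bp gave 74.0%. With each copy left out the ends ran from 64.1% to 77.1% under H2A.W.6 and from 70.3% to 80.7% under H2A.W.7, and the interior from 71.1% to 78.0% and from 46.9% to 56.5%. The interior moved to 77.6% under H2A.W.6 with ends of 1000 bp and to 54.8% under H2A.W.7 with ends of 250 bp. Flanks had 12.3% H2A.W.6 and 15.2% H2A.W.7 over 2 kb. Over 5 kb they had 10.4% and 9.78%, and over 1 kb H2A.W.7 had 18.4%. Bases with both variants were 37.3% of those with either with the stricter list and 59.0% when joined across 100 bp. Pseudogenes of 3 to 8 kb gave shares past the 50% limit inside the interval of those of 4 to 6 kb. Their ends, interior, parts and flanks were not compared. Joining across 1000 bp closes most gaps in a body by construction; the cause was not tested for the others. The unknown depth limits each value, since a deeper library or looser threshold could lengthen either list.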
